A study of Mus musculus with 6 samples.

Results

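The 49 genes described here move, store, reduce or sense zinc, iron and copper. The rule that names them uses symbols and no measured value, though the set was proposed with earlier results of these data known. They are the zinc transporter families Slc39a and Slc30a, the Steap reductases, the metallothioneins, their regulator Mtf1, and a fixed set of iron and copper genes from Tfrc to Atp7a. Of 51 such genes in the mouse RefSeq table, 49 had a probe set among the 41938 entries tested, and Slc39a9 and Steap2 were not analysed here. The cells were MC3T3-E1, a clonal preosteoblast line from mouse calvaria. The undifferentiated group (3 arrays) was grown in alpha MEM with serum. The differentiated group (3 arrays) had the same medium with 10 mM glycerol-2-phosphate and 50 ug/mL ascorbic acid for 15 days. All cultures of both groups received ethanol vehicle for 24 h, and the submitters describe biological triplicates. The comparison asks which of these genes changed with osteogenic differentiation, within a study of the osteoblast transcription factor RUNX2.

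Cells bring zinc into the cytosol with Slc39a (ZIP) proteins and send it out, or into organelles, with Slc30a (ZnT) proteins. Metallothioneins bind the surplus, and the zinc-sensing factor Mtf1 switches their genes on. Iron circulates on transferrin (Trf), enters through the transferrin receptor (Tfrc), is stored in ferritin (Fth1 and Ftl1) and leaves through ferroportin (Slc40a1). Ceruloplasmin (Cp) and hephaestin (Heph), both copper enzymes, oxidise the exported iron. Copper enters through Slc31a1, and the pump Atp7a delivers it to secreted enzymes such as lysyl oxidase, which crosslinks collagen. Alkaline phosphatase, the mineralization enzyme of osteoblasts, needs zinc that is loaded in the secretory pathway.

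The values are normalized log2 intensities of single-colour arrays. Median deposited intensities ran from 806 to 845 units over the 6 arrays, and the random-sequence control probes, here the background level, read 6.69 to 6.80 on the normalized log2 scale. A reading above them does not by itself show expression. The muscle gene Ckm, for example, read 11.04 ± 0.36 (SD, n = 3) in undifferentiated cells, and whether the cells express it was not tested. Of 6 osteoblast markers, Alpl, Bglap and Sp7 passed as higher after differentiation. Runx2, Col1a1 and Ibsp did not pass. Their log2 fold changes were 0.02 (95% confidence interval -0.19 to 0.23), 0.05 (-0.16 to 0.26) and 0.41 (-0.02 to 0.84). None of 5 macrophage markers passed in either direction, and their mean level was 8.20 to 8.27 before and 8.30 to 8.33 after differentiation. None of 4 chondrocyte markers passed. Of 4 skeletal muscle markers, Des passed as higher (log2 fold change 0.42, limma adjusted p = 0.0371), and their mean level was 8.98 to 9.25 before and 9.25 to 9.40 after. The part of these cell types in the results was not tested. All arrays of one group shared 1 number in their image identifiers, and the groups had different numbers. This number is read here as a batch, which is an inference. Batch and group cannot be told apart in any result here, nor can the supplements and the time in culture. Undifferentiated replicate 3 lay farthest from its group, with a root mean square deviation of 0.200 over the 49 genes against 0.0716 to 0.155 for the other arrays.

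After osteogenic differentiation the iron carrier Trf was 7.77-fold higher, the metalloreductase Steap4 6.31-fold, the zinc importer Slc39a12 4.77-fold and the iron exporter Slc40a1 2.37-fold. The reductase-family gene Steap1 fell 3.01-fold. The copper pump Atp7a, the transferrin receptor Tfrc, the metallothionein Mt2 and the zinc transporters Slc39a14, Slc39a11 and Slc30a7 fell by smaller factors. In all 6 of the 49 genes rose, 7 fell and 36 did not pass, at an adjusted p under 0.05 (limma with Benjamini-Hochberg adjustment over all 41938 entries). That is 26.5% of these genes, against 17.0% of all entries and 16.8% of genes with a symbol. By direction, 12.2% were called higher and 14.3% lower, against 7.97% and 9.04% of all entries, and 8.68% and 8.16% of genes with a symbol. A called change of at least 2-fold was found for 5 of the 49 (10.2%), against 2.41% of all entries and 2.65% of genes with a symbol. The median log2 fold change of the 49 was 0.05, against 0.00 for all entries, and 28 of them differed by less than 1.2-fold. In bulk RNA, a change in the share of cells that express a gene and a change in RNA per cell cannot be told apart.

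**Figure D1:**
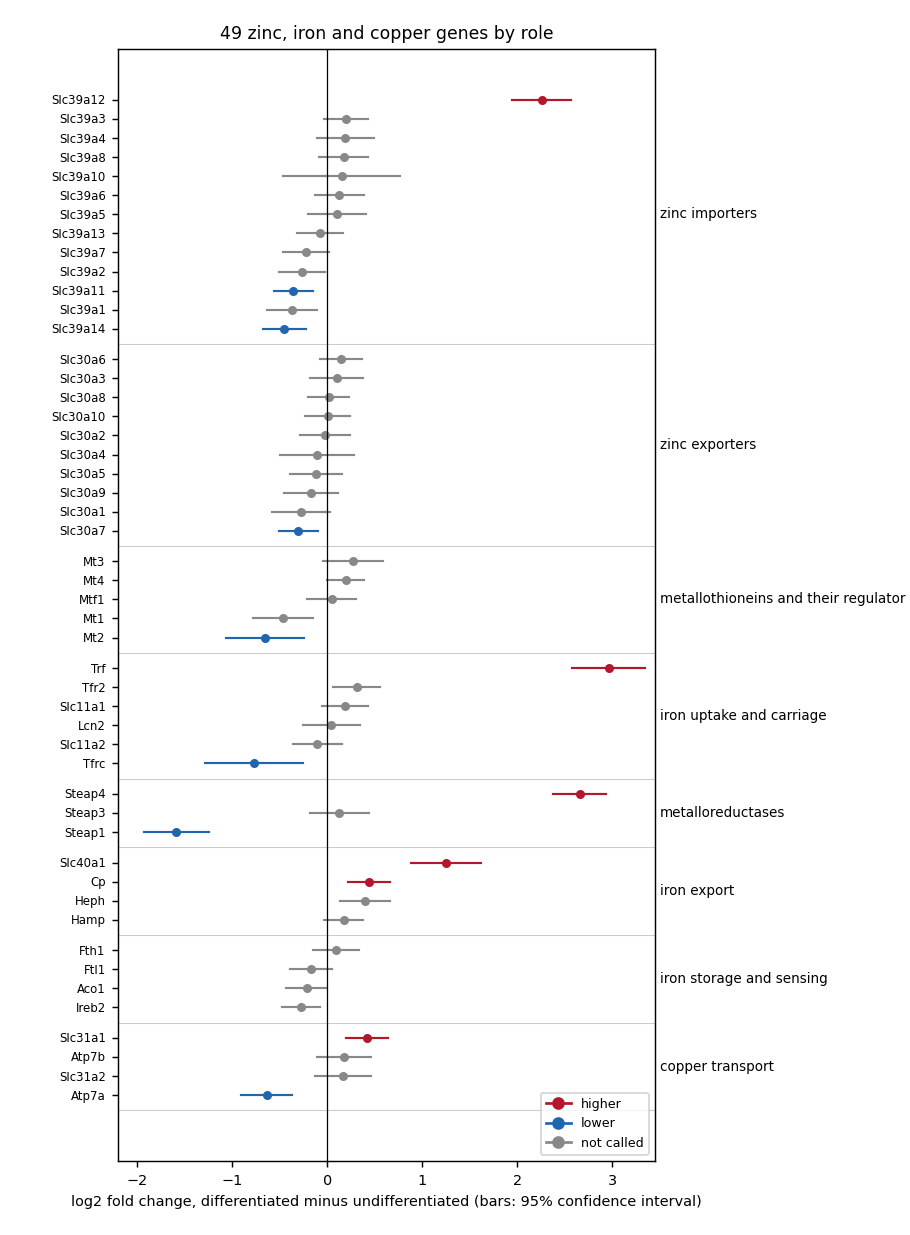
Log2 fold change (differentiated minus undifferentiated, x axis) of each of the 49 genes, grouped by role, with bars for the 95% confidence interval of the limma fit. Red genes were called higher (6), blue genes lower (7) and grey genes were not called (36). Trf, Steap4, Slc39a12 and Steap1 stand clear of the rest, while every ferritin and iron sensor gene is grey.

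Promoter stretches of the metallothioneins Mt1 and Mt2 and of the zinc exporter Slc30a1, 3 textbook targets of Mtf1, are shown because these genes report on cytosolic zinc. They are placed by the annotated start, and whether transcription begins there in these cells was not tested. Each line gives the 250 bases before the annotated start, 5′ to 3′ on the gene's own strand, from RefSeq (GRCm38.p6). Capitals mark matches to the metal response element that Mtf1 binds, searched as TGCACNC and TGCGCNC on both strands with overlapping matches counted separately. The Mt1 window lies at chr8:94178839-94179088, the Mt2 window at chr8:94172368-94172617 and the Slc30a1 window at chr1:191906531-191906780, all on the plus strand.
Mt1: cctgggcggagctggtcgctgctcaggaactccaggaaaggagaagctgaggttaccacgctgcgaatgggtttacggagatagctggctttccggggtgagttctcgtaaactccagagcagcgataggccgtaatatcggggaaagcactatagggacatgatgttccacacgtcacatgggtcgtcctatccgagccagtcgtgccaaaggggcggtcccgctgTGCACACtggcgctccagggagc
Mt2: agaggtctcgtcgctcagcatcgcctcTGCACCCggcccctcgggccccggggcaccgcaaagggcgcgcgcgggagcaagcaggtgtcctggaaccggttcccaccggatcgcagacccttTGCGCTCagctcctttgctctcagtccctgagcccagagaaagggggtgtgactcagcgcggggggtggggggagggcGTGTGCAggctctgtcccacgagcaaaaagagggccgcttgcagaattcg
Slc30a1: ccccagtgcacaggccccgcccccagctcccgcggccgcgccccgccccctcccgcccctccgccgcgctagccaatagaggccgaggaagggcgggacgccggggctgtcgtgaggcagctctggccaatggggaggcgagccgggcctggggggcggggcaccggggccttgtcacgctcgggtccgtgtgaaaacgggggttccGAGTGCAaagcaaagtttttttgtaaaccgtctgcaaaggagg

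Counted over the whole 300-base window of the promoter table, which runs 50 bases past the start, Mt2 had 4 matches, Mt1 had 3 and Slc30a1 had 2. The printed 250 bases hold 3 of these for Mt2, 1 for Mt1 and 1 for Slc30a1. The other matches reach past the start and are not shown. Of the 32851 windows in the table, 25.7% held at least 1 match, 7.11% at least 2, 1.97% at least 3 and 0.518% at least 4. Promoter windows were found for 41 of the 49 genes, some with several starts, and 22 of their 54 windows, from 21 genes, held at least 1 match. A match of letters is a description and does not show binding. The core of the iron-responsive element was searched on the sense strand in the 50 bases after the start, as a C, any 5 bases and then CAGTGN. It matched in 1 of the 41 genes, Tfr2 (1 of its 3 windows), and in 1.55% of all windows. The windows of Fth1 and Ftl1 held no match, and Slc40a1 had no window. Bases farther from the start were searched for neither motif. Neither search can therefore show that a gene lacks an element, or give the full number of elements in its promoter.

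Among the metallothioneins, the 2 widely expressed genes read lower after differentiation, and 1 of them passed. Mt2 read 12.51, 12.57 and 11.86 on undifferentiated replicates 1, 2 and 3, and 11.77, 11.61 and 11.59 on the differentiated arrays. The groups did not overlap, though undifferentiated replicate 3 lay close to the differentiated arrays. Mt2 fell 1.57-fold (log2 fold change -0.65 ± 0.18 SE, limma adjusted p = 0.0384). Its call was lost on leaving out any 1 array other than undifferentiated replicate 3 (adjusted p up to 0.133), and without that array the log2 fold change was -0.88 (adjusted p = 0.000264).

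Mt1 read 12.67, 12.97 and 12.52 before and 12.12, 12.19 and 12.44 after differentiation. Every differentiated array was lower than every undifferentiated one, as held for 51.0% of the 49 genes, 35.4% of all entries and 34.8% of genes with a symbol in one direction or the other. Mt1 did not pass, by a narrow margin (log2 fold change -0.47, 95% confidence interval -0.79 to -0.15, limma adjusted p = 0.0505), and it passed in 10 of the 16 other settings tried, among them those without undifferentiated replicate 3 or differentiated replicate 3, with adjusted p from 0.00118 to 0.179 over all 16. Their regulator Mtf1 differed by 0.05 (95% confidence interval -0.21 to 0.31), at 9.71 ± 0.19 before and 9.75 ± 0.07 after (SD, n = 3 per group). Mt3, known from brain, and Mt4, known from squamous epithelium, did not pass, with log2 fold changes of 0.27 (-0.05 to 0.58) and 0.19 (0.00 to 0.38). Mt4 read 7.20 before and 7.39 after, near the random-sequence probes. Mt3 passed without undifferentiated replicate 3, at 0.40 (limma adjusted p = 0.0230), and with array weights.

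Of 13 zinc importers of the Slc39a family, 1 rose, 2 fell and 10 did not pass, where 17.0% of all entries were called. The count is not read as a result about the family. Slc39a12 (ZIP12), an importer best known from brain, read 7.52, 7.29 and 7.62 in undifferentiated cells and 9.51, 9.75 and 9.93 after differentiation. The groups stand far apart, and the undifferentiated values lie near the random-sequence probes, which makes the size of the rise uncertain. The rise was 4.77-fold (log2 fold change 2.25 ± 0.14 SE, limma adjusted p = 2.31e-05). With 50 units added to every intensity, a setting that damps low values, it was 1.98 on the log2 scale.

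Slc39a14 (ZIP14) carries zinc, iron and manganese across the plasma membrane. It read 11.51, 11.74 and 11.59 before and 11.10, 11.14 and 11.25 after differentiation, with no overlap, and it fell 1.37-fold (log2 fold change -0.45 ± 0.10 SE, limma adjusted p = 0.0156). Its closest relative in function, Slc39a8 (ZIP8), read 7.20 ± 0.16 and 7.38 ± 0.12 (SD, n = 3 per group), and its log2 fold change was 0.17 (-0.09 to 0.43). The Slc39a8 values lie near the random-sequence probes, so a change could be missed. Slc39a14 missed the threshold when undifferentiated replicate 2 was left out (adjusted p = 0.0502), and likewise for differentiated replicates 1 (0.0642) and 2 (0.0819).

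Slc39a11 (ZIP11) read 10.92, 10.95 and 10.998, then 10.51, 10.63 and 10.65. It fell 1.28-fold (log2 fold change -0.36 ± 0.09 SE, limma adjusted p = 0.0271). That call held without undifferentiated replicate 3 and was lost without any other single array (adjusted p up to 0.0992), as well as with the deposited values (0.0566) or median centring (0.0530). The importer Slc39a1 (ZIP1) also read lower on every differentiated array and did not pass (log2 fold change -0.37, 95% confidence interval -0.63 to -0.11, adjusted p = 0.0620), though it did in 5 other settings, 1 of them without undifferentiated replicate 2. Slc39a10 (ZIP10) read 8.99 and 8.91 on undifferentiated replicates 1 and 2 but 9.96 on replicate 3, against 9.11, 9.54 and 9.66 after differentiation. Over all arrays it differed by 0.15 (-0.46 to 0.77), and without undifferentiated replicate 3 it passed, at 0.48 (limma adjusted p = 0.0428). Slc39a13 (ZIP13), whose loss in mice and humans disturbs bone and connective tissue, differed by -0.08 (-0.32 to 0.16).

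None of the 10 Slc30a exporters rose, 1 fell and 9 did not pass. With 17.0% of all entries called, this count is no result about the family. Slc30a7 (ZnT7), which loads zinc into the early secretory pathway, read 12.51, 12.58 and 12.63 before and 12.20, 12.29 and 12.31 after differentiation. It fell 1.24-fold (log2 fold change -0.31 ± 0.09 SE, limma adjusted p = 0.0477), the smallest of the 13 called changes. The call was lost on leaving out any single array (adjusted p up to 0.157), and with the deposited values, median centring or a filter on dim entries. Slc30a5 (ZnT5) and Slc30a6 (ZnT6), which form a complex that supplies zinc to alkaline phosphatase, had log2 fold changes of -0.12 (-0.39 to 0.16) and 0.14 (-0.08 to 0.37). Both probe sets of Slc30a5 gave the same picture, at -0.12 and -0.11. The plasma membrane exporter Slc30a1 (ZnT1) read 9.43 ± 0.21 and 9.15 ± 0.15 (SD, n = 3 per group), a log2 fold change of -0.28 (-0.58 to 0.02) that did not pass. Over the 9 exporters that did not pass, log2 fold changes lay between -0.28 and 0.14. On the same arrays Alpl itself rose 8.10-fold.

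**Figure D2:**
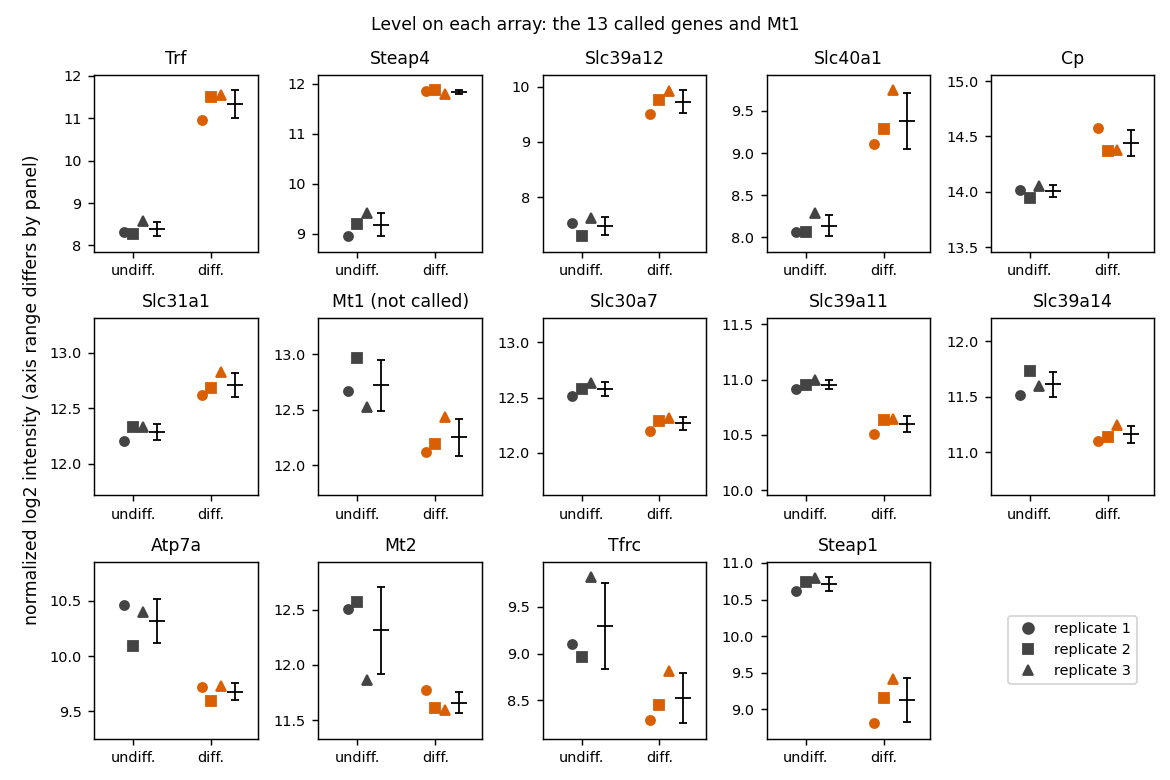
Normalized log2 intensity on each array of the 13 called genes and of Mt1, undifferentiated (grey) and differentiated (orange), with marker shapes for replicates 1 to 3 and a bar for the mean and SD (n = 3 per group); axis ranges differ by panel. The groups are wide apart for Trf, Steap4, Slc39a12 and Steap1, and undifferentiated replicate 3 stands off from its group for Mt2 (11.86) and Tfrc (9.82).

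Of 6 genes of iron uptake and carriage, 1 rose, 1 fell and 4 did not pass, where 17.0% of all entries were called. Trf, the plasma iron carrier made mainly by liver, read 8.32, 8.26 and 8.58 in undifferentiated cells and 10.97, 11.52 and 11.55 after differentiation. All 3 differentiated arrays lay more than 2 log2 units above the undifferentiated ones. Trf rose 7.77-fold (log2 fold change 2.96 ± 0.17 SE, limma adjusted p = 1.72e-05), the largest change among the 49, and its log2 fold change stayed between 2.79 and 3.17 in the other settings.

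Tfrc, which takes up transferrin-bound iron and is abundant in dividing cells, read 9.11, 8.96 and 9.82 before and 8.29, 8.45 and 8.82 after differentiation. Undifferentiated replicate 3 was the highest array, and the lowest undifferentiated value lay just above the highest differentiated one. Tfrc fell 1.71-fold (log2 fold change -0.77 ± 0.23 SE, limma adjusted p = 0.0477). Without undifferentiated replicate 3 the log2 fold change was -0.51 (adjusted p = 0.0316). Tfrc missed the threshold when undifferentiated replicate 1 (0.0814) or differentiated replicate 1 or 2 (0.160 and 0.156) was left out, and with an offset of 50 units (0.0639).

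The other 4 genes of this group did not pass. Slc11a2 (DMT1), which moves ferrous iron into the cytosol, differed by -0.10 (-0.36 to 0.16), and the siderophore-binding lipocalin Lcn2 by 0.04 (-0.26 to 0.34). Tfr2, a sensor of transferrin in hepatocytes, read higher on every differentiated array (8.45 to 8.71, against 8.14 to 8.39) but had an adjusted p of 0.0935 (limma). It passed without undifferentiated replicate 3 (adjusted p = 0.0417). Slc11a1 (NRAMP1), a metal transporter of macrophage phagosomes, differed by 0.18 (-0.06 to 0.43).

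The 2 Steap genes that passed moved in opposite directions. The family is named for reducing ferric iron and cupric copper ahead of transport, though Steap1 lacks the domain that binds the electron donor. Steap4, a metalloreductase also known from adipose tissue, read 8.95, 9.20 and 9.41 before and 11.85, 11.87 and 11.80 after differentiation. The differentiated arrays were almost identical, and the rise was 6.31-fold (log2 fold change 2.66 ± 0.12 SE, limma adjusted p = 5.72e-06), the lowest adjusted p among the 49. Of 4 adipocyte markers none passed as higher. Adipoq passed as lower, though at 7.30 before and 6.88 after it lies near the random-sequence probes. The part of adipocytes in the Steap4 rise was not tested. Steap1 read 10.61, 10.73 and 10.80, then 8.81, 9.15 and 9.41, so that it fell 3.01-fold (log2 fold change -1.59 ± 0.15 SE, limma adjusted p = 0.000249). Steap3, the endosomal ferrireductase of red cell precursors, differed by 0.12 (-0.18 to 0.43).

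Of 4 genes of iron export, 2 rose and 2 did not pass, where 7.97% of all entries were called higher. Slc40a1 (ferroportin), the known exporter of cellular iron in mammals, read 8.06, 8.07 and 8.29 before and 9.11, 9.29 and 9.75 after. The groups did not overlap, and the differentiated arrays spread more widely than the undifferentiated ones. Slc40a1 rose 2.37-fold (log2 fold change 1.24 ± 0.16 SE, limma adjusted p = 0.00139), with a log2 fold change of 1.06 to 1.38 when single arrays were left out.

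Cp (ceruloplasmin), a copper ferroxidase, read 14.01, 13.95 and 14.05, then 14.57, 14.37 and 14.38. It rose 1.35-fold (log2 fold change 0.44 ± 0.10 SE, limma adjusted p = 0.0168). Leaving out replicate 1 or 2 of the undifferentiated group took Cp above the threshold of 0.05 (adjusted p = 0.0518 and 0.0538), as did leaving out replicate 1 or 2 of the differentiated group (0.0677 and 0.0586). Heph, the membrane-bound ferroxidase, had 2 probe sets that differed in sign. The brighter one read 6.77, 7.07 and 6.87 before and 7.20, 7.22 and 7.46 after, a log2 fold change of 0.39 that did not pass (adjusted p = 0.0506) but did in 6 other settings, 1 of them without undifferentiated replicate 2, and the other gave -0.18 (adjusted p = 0.315). Both lie near the random-sequence probes, and no direction is given for Heph. Hamp, the hepcidin hormone that removes ferroportin from the membrane, read 7.08 ± 0.05 and 7.26 ± 0.06 (SD, n = 3 per group) and did not pass. It too lies near the random-sequence probes.

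No gene of iron storage or of the iron-responsive proteins passed. With 4 genes, and 17.0% of all entries called, this count is no result about the group. The ferritin heavy chain Fth1 read 15.70, 15.42 and 15.70 before and 15.66, 15.70 and 15.73 after, a difference of 0.09 (-0.15 to 0.33). The light chain Ftl1 read 15.24, 15.48 and 15.30, then 15.13, 15.18 and 15.20, a difference of -0.17 (-0.39 to 0.05). Both genes sit close to the maximum of 15.93 on these arrays, where a change can be compressed. Ireb2 (IRP2) and Aco1 (IRP1), which bind iron-responsive elements and set the translation of ferritin and the stability of Tfrc mRNA, read lower on every differentiated array. Ireb2 had a log2 fold change of -0.28 (-0.48 to -0.08, limma adjusted p = 0.0637) and Aco1 one of -0.22 (-0.43 to 0.00, adjusted p = 0.166). Ireb2 passed with trend and robust settings (adjusted p = 0.0341), with array weights (0.0186) and with the offset (0.0418).

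Of the 4 copper transporters, the importer rose and a copper pump fell, where 17.0% of all entries were called. Slc31a1 (CTR1), the high-affinity importer, read 12.20, 12.33 and 12.33 before and 12.62, 12.68 and 12.83 after. The rise was 1.34-fold (log2 fold change 0.42 ± 0.10 SE, limma adjusted p = 0.0199). It was lost with the deposited values (adjusted p = 0.0705) or median centring (0.104), and without undifferentiated replicate 1 (0.0691) or differentiated replicate 2 (0.0834) or 3 (0.0705). Atp7a, the copper pump of the secretory pathway, read 10.46, 10.09 and 10.40 before and 9.72, 9.59 and 9.73 after. It fell 1.56-fold (log2 fold change -0.64 ± 0.12 SE, limma adjusted p = 0.00745) and kept its call in each of the 16 other settings (adjusted p up to 0.0483). Its liver counterpart Atp7b differed by 0.17 (-0.11 to 0.45), and Slc31a2 by 0.16 (-0.13 to 0.46).

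**Figure D3:**
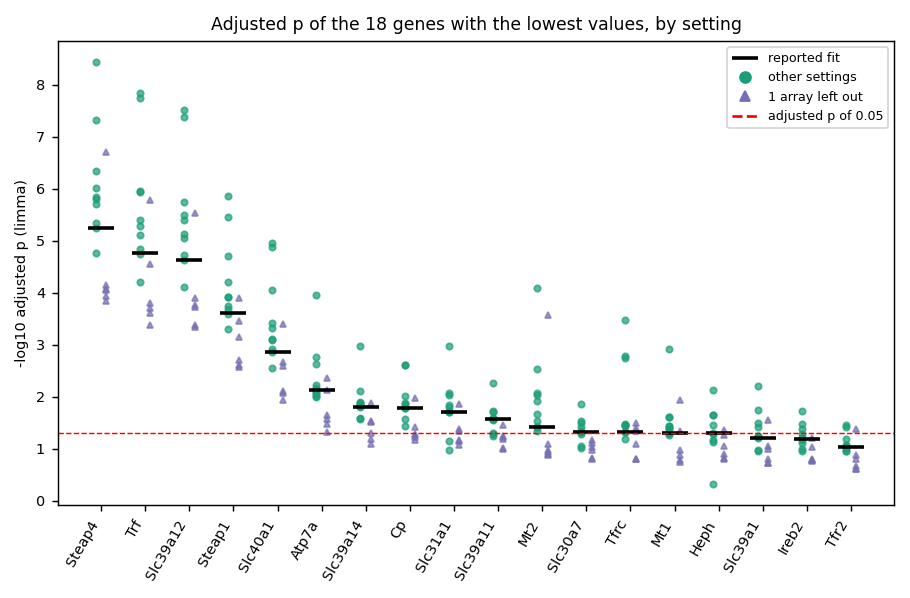
The -log10 of the limma adjusted p (y axis) for the 18 genes with the lowest values, in the reported fit (black bar), in 10 other settings (green, fewer where a gene was filtered out) and with each array left out in turn (violet). Steap4, Trf, Slc39a12, Steap1, Slc40a1 and Atp7a stay above the dashed line of 0.05 throughout, and the other 12 genes cross it.

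A further 46 genes of the same pathways, outside the 49, were listed alongside them, and 42 were measured. Of these 6 rose, 9 fell and 27 did not pass, with a median log2 fold change of -0.04. The share called was 35.7%, against 17.0% of all entries. These genes were brighter, with a median level of 10.95 against 9.69 for all entries, and the shares are not matched for level. With the filter on dim entries, 21.5% of the entries kept were called. In the iron sensing and delivery list, 2 of 10 measured genes rose and 2 fell (40% called). Hfe, the hereditary haemochromatosis gene, read 8.75, 8.84 and 9.34 before and 10.06, 10.43 and 10.37 after, and rose 2.48-fold (log2 fold change 1.31 ± 0.17 SE, limma adjusted p = 0.00137). Hjv, the BMP co-receptor hemojuvelin, also rose (0.38). Pcbp1, a chaperone that delivers iron to ferritin, fell by 0.43 on the log2 scale, and Fbxl5, the ubiquitin ligase subunit that targets Ireb2, fell by 0.46.

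Of 18 measured genes of haem and iron-sulfur metabolism, 2 rose, 1 fell and 15 did not pass. The share called, 16.7%, is near the 17.0% of all entries and is no result about the list. Slc48a1, a haem transporter of endosomes and lysosomes, read 12.21, 12.24 and 12.07, then 13.08, 13.14 and 13.03, and rose 1.88-fold (log2 fold change 0.91 ± 0.09 SE, limma adjusted p = 0.000381). Of the haem synthesis enzymes, Cpox fell 2.12-fold (adjusted p = 0.00363) and Urod rose 1.28-fold (adjusted p = 0.0387). Cpox read 7.69, 7.59 and 8.29 on the differentiated arrays, toward the random-sequence probes, which makes the size of its fall uncertain. The inducible haem oxygenase Hmox1 differed by 0.24 (-0.07 to 0.55).

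In the list of copper chaperones and copper enzymes, 2 of 14 measured genes rose, 6 fell and 6 did not pass. The share called was 57.1%, against 17.0% of all entries, which are dimmer (median level 9.69, against 10.95 for this list). The crosslinking enzymes Lox, Loxl1 and Loxl4, which receive copper through Atp7a, fell 1.39-fold, 1.30-fold and 1.37-fold (limma adjusted p = 0.0308, 0.0223 and 0.0197). Their relatives Loxl2 and Loxl3 did not pass and did not read lower. Their log2 fold changes were 0.23 (95% confidence interval -0.04 to 0.50) and 0.13 (-0.10 to 0.36), with Loxl3 near the random-sequence probes. Sod1, the cytosolic copper and zinc superoxide dismutase, fell 1.48-fold, and the mitochondrial copper proteins Cox17 and Cox19 fell 1.45-fold and 1.53-fold. Atox1, which hands copper to Atp7a, rose 1.44-fold (log2 fold change 0.52 ± 0.14 SE, adjusted p = 0.0340), and the extracellular dismutase Sod3 rose 1.46-fold. Hfe, Slc48a1, Cpox and Cox19 kept their calls in all 16 other settings. Pcbp1 and Sod1 lost theirs without differentiated replicate 2 alone (adjusted p = 0.0874 and 0.0624), and Loxl4 without that array or undifferentiated replicate 2 (0.104 and 0.0601). The calls of Lox, Loxl1, Hjv, Fbxl5, Urod, Cox17, Atox1 and Sod3 were each lost without differentiated replicate 1 and without replicate 2, and all but that of Sod3 without replicate 3 (adjusted p up to 0.137). Leaving out undifferentiated replicate 1 ended the calls of Fbxl5, Urod, Cox17, Lox and Sod3, replicate 2 those of Fbxl5, Hjv, Urod, Atox1, Cox17 and Loxl1, and replicate 3 that of Fbxl5. Lox and Urod also lost their calls with the deposited values and with median centring, Hjv with median centring and Fbxl5 with array weights.

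**Figure D4:**
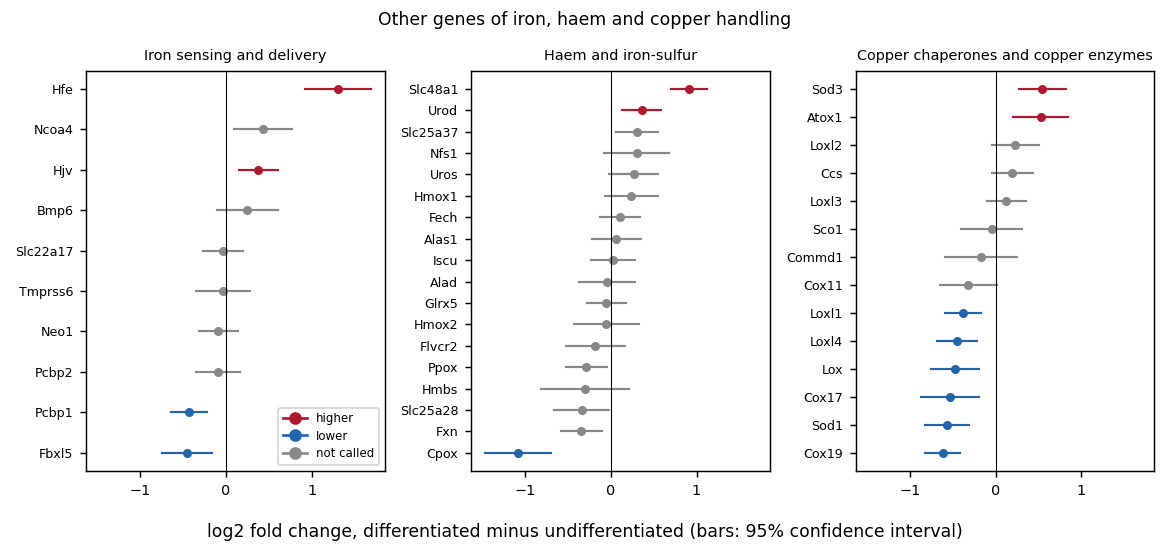
Log2 fold change (differentiated minus undifferentiated, x axis) with 95% confidence intervals of the 42 measured genes in 3 further lists, colored as higher (red, 6), lower (blue, 9) or not called (grey, 27). Hfe and Slc48a1 lie farthest to the right and Cpox farthest to the left, and 6 genes of the copper list are blue.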

How the data were processed

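The deposited values are the authors' RMA intensity values on a linear scale, 1 per probe set, per the submitters' processing notes. For the RMA version, the array design build and the arrays processed jointly, nothing is given in the sources used here. Intensities were put on the log2 scale and quantile normalized together, since the deposited distributions were not identical (for the pair of arrays farthest apart, the median gap between ranked log2 values was 0.135). Probe sets were named by unversioned accession (17849) or by name or synonym (130) through the RefSeq table of GRCm38.p6, and 24607 stayed unnamed. The probe set with the highest mean intensity stood for each gene, with no filter on low values. limma 3.58.1 in R 4.3.3 (lmFit, eBayes, two-sided, no covariate) tested differentiated minus undifferentiated with Benjamini-Hochberg adjustment over 41938 entries. The 3 arrays per group limit the precision. The code was tested on simulated data. Called genes are named with values, beside a set of central metal genes. Other genes are named as neighbours of these, chosen after their values were seen. The genes, lists and tests were chosen with earlier results of these data known. The series value table holds the same numbers, with differentiated replicates 1 and 2 exchanged, so these 2 replicate numbers are uncertain.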

Additional observations from a re-analysis of the deposited data

How the results depend on the processing

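The 6 higher and 7 lower calls among the 49 genes were recomputed in 16 other settings, and Trf, Steap4, Slc39a12, Slc40a1, Steap1 and Atp7a were called in all of them. With array weights 13 were higher and 13 lower, where 37.8% of all entries were called. Leaving out single arrays gave 4 to 9 higher and 2 to 7 lower calls, while the share called over all entries, 17.0% as reported, ran from 7.48% (without differentiated replicate 2) to 22.6% (without undifferentiated replicate 3). Of the lower calls, 3 were made without undifferentiated replicate 1, 4 without replicate 2, and 2 without differentiated replicate 1 or 2. Of the further metal genes, 11 were higher and 9 lower with array weights, against 6 and 9, beside the same 37.8% of all entries. Leaving out single arrays gave 2 to 10 higher and 2 to 8 lower calls among them. With fewer arrays the test has less information, and the cause of the gains with array weights was not tested. No called gene changed sign. Of 776 values of the 49 genes recomputed, 24 had the opposite sign, and 0 of these were called. Among genes that did not pass, Lcn2 and Steap3 had log2 fold changes of -0.086 and -0.011 with array weights. With single arrays left out, values crossed 0 for Lcn2 (-0.084 to 0.14), Steap3 (-0.00218 to 0.25), Fth1 (-0.00616 to 0.14), Mtf1 (-0.016 to 0.15) and Slc39a10 (-0.037 to 0.48). The other values of opposite sign belonged to Slc30a2, Slc30a3, Slc30a4, Slc30a8, Slc30a10 and Slc39a5.

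Whether the replicate numbers pair the arrays is not settled by these values. Deviations from the group means correlated at 0.33, -0.14 and 0.46 for numbers 1, 2 and 3, and at -0.01, 0.43 and 0.46 with differentiated numbers 1 and 2 exchanged, a numbering tried after the data were seen. The replicate block gave 7 higher and 9 lower calls among the 49, or 8 and 9 with the numbers exchanged, where 21.4% and 25.0% of all entries were called. Testing genes with a symbol alone, also chosen after the data were seen, gave 7 and 8. The batch inferred from the image identifiers could not be fitted as a random block, because each batch held all arrays of 1 group.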
